A study of Homo sapiens with 6 samples.

Results

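The genes followed here are ones that growth factor signalling through ERK is known to switch on, most of which in turn restrain that signalling. These 10 genes are the phosphatase genes DUSP1, DUSP4, DUSP5 and DUSP6, the inhibitor genes SPRY2, SPRY4, SPRED1 and SPRED2, and the transcription factor genes ETV4 and ETV5. They were chosen by name, from a list of ERK-induced feedback regulators and ETV factors, out of 58219 gene identifiers in each file, and all 10 were among the 14239 genes with enough reads to test. RNA was sequenced from SNU-387, an established line from a pleomorphic hepatocellular carcinoma. In one group of 3 samples (shNT) the line stably expresses a short hairpin RNA with no target, and in the other 3 (shYES1) its hairpin is directed at YES1, which encodes a SRC-family tyrosine kinase. Both groups thus carry a hairpin construct, and no parental line was analysed here. The labels do not say how many hairpins or clones stand behind each group, nor whether its samples were separate cultures, so p-values reflect only how far these particular samples spread, which can be a technical spread.

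ERK is the last kinase of a relay in which receptor tyrosine kinases activate RAS, RAS activates RAF, RAF activates MEK and MEK activates ERK. Active ERK raises the transcription of genes whose products act back on the relay, so the RNA of these genes is widely used as a readout of ERK output. DUSP phosphatases remove phosphate from MAP kinases, Sprouty and SPRED proteins hold back the activation of RAS and RAF, and ETV4 and ETV5, ETS factors of the PEA3 subfamily, carry the signal to further genes.

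The libraries held 11290889 to 18944148 gene reads. YES1 was 4.06-fold lower in shYES1, at 178, 181 and 180.0 CPM in the 3 shNT libraries against 42.9, 43.3 and 46.0 CPM in the 3 shYES1 libraries (CPM, the read count of a gene corrected for the depth of its library, with TMM factors). Of 8 hepatocyte markers, HNF4A and TTR had no read, ALB, APOA1, APOB and FGB lay under 0.1 CPM on average and AFP under 0.5 CPM in both groups, whereas SERPINA1 was at 19.2 CPM in shNT. The labelled liver origin is thus not seen in most hepatocyte genes. Levels of 4 epithelial markers summed to 764 to 774 CPM in shNT and 1070 to 1091 CPM in shYES1 (2 rose of 3 tested, KRT8 and KRT18, with CDH1 and EPCAM under 1.5 CPM on average), and 4 mesenchymal ones to 30630 to 33520 and 22470 to 22580 CPM (2 rose, 2 fell). FN1 held most of the mesenchymal sum and fell from 26240 to 15910 CPM, and VIM fell from 44.5 to 23.2 CPM. COL1A1 (1481 to 1670 CPM) and COL1A2 (4337 to 4917 CPM) rose. Of blood and endothelial markers, 4 each, the sums were 42.7 to 46.4 against 37.1 to 40.05 CPM and 24.8 to 25.9 against 23.1 to 23.7 CPM, with CD3E at 0 and PTPRC and CD68 under 1 CPM on average. CD14 held nearly all of the blood sum (44.0 to 38.3 CPM). Among the endothelial genes VWF rose from 0.351 ± 0.149 to 1.44 ± 0.218 CPM (4.25-fold, also past the 1.5-fold minimum), on only 3 to 6 reads per shNT library. PECAM1 fell from 13.9 to 11.2 CPM, CDH5 was not called (11.1 to 10.6 CPM) and KDR lay under 1 CPM on average. The part of these shifts in the results that follow was not tested.

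In shYES1 cells 8 of the 10 feedback genes rose and 2 fell, and the widest change of the 10 was 1.61-fold. All 4 Sprouty and SPRED genes among the 10 rose, led by SPRED1 and followed by SPRY2 at 1.43-fold. Among the phosphatases, DUSP5, DUSP1 and DUSP6 rose while DUSP4 fell 1.47-fold. The ETV genes parted, with ETV4 higher by 1.17-fold and ETV5 lower by 1.14-fold.

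All 10 passed an adjusted p of 0.05 (edgeR's quasi-likelihood test, Benjamini-Hochberg over all genes tested), but so did 65.3% of the 14239 genes, which makes a call alone a weak distinction in these libraries. The share of all genes called higher was 32.5%, and 32.8% were called lower. For each of the 10 genes the shNT and shYES1 libraries were fully separate, as they were for 67.9% of all genes. SPRED1 alone (1 of 10) passed when tested against a 1.5-fold minimum, whereas 13.8% of all genes did, 4.33% upwards and 9.47% downwards. As a median, the log2 fold change of the 10 genes was 0.28, beside -0.00469 for all genes, and the median size regardless of direction was 0.36, beside 0.30. In size of change the 10 genes were therefore close to the typical gene. With library-size scaling 60.7% of called genes were higher, against 49.7% with TMM, and with TMM computed on genes that lack CCTTTC in their 3' UTR, a sequence taken up below, 38.4% were. The 8 rises and 2 falls kept their direction under each of these scalings, while 2 of the rises lost their call under the last. CCTTTC was picked on these libraries, as a sequence found more often in genes lower in shYES1. Scaling on genes that lack it therefore lowers log2 fold changes as a whole (median -0.0965, against -0.0047 with TMM on all tested genes). A call lost or gained under that scaling is thus no independent check, here and below.

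**Figure D1:**
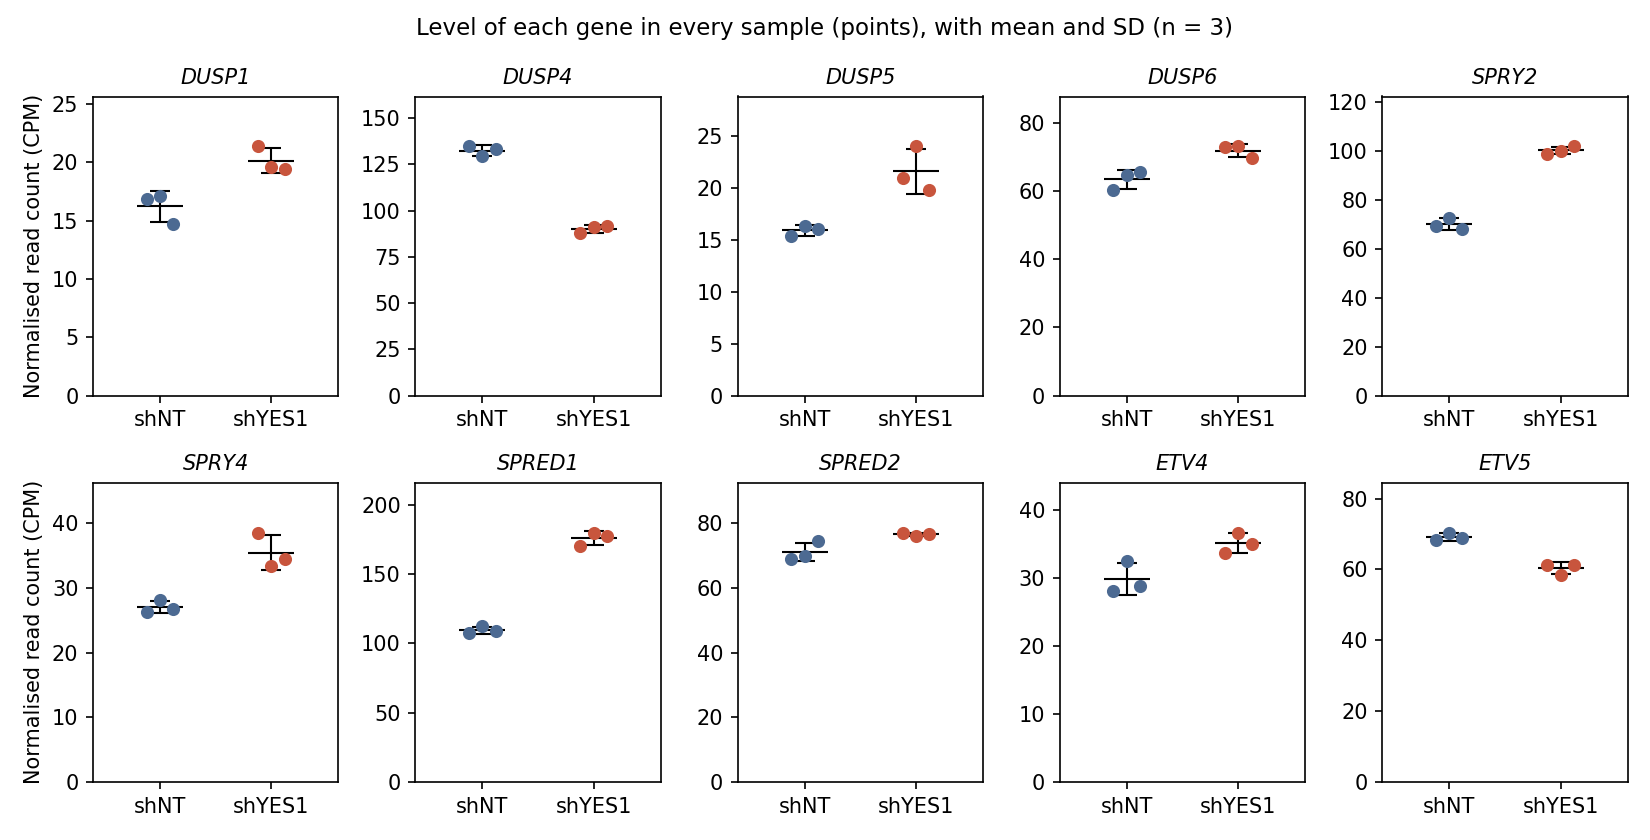
Normalised read count (CPM, linear axis from 0) of each of the 10 genes in the 3 shNT and the 3 shYES1 libraries (points), with mean and SD (bars). The groups are separate in every panel, with DUSP4 and ETV5 lower and the other 8 genes higher in shYES1.

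Promoter sequence from RefSeq (GRCh38.p14) matched 6 of the 10 genes: DUSP1, DUSP6, SPRY2, SPRY4, SPRED1 and SPRED2, with 9 start sites in all. The 250 bases before each start were searched on both strands for motifs of factors tied to ERK. A cyclic AMP response element (TGACGTCA) was found in DUSP1 and in 1.65% of all promoters. The ETS core CCGGAA was found in 1 start of SPRY2 and in 14.5% of all promoters, and TGAATGA, the core of the site of CIC, a repressor that ERK inactivates, was found in DUSP6 and in 3.35%. The AP-1 site TGACTCA was in none of the 9 and in 4.2% of all. The stretches searched for DUSP6, SPRY4 and SPRED1, and some of those for SPRY2 and SPRED2, lie inside the annotated gene. They follow its outermost start, so the match in DUSP6 is not a match before that start. In the stretches searched, the 6 genes, all of which rose, had no motif of these 4 in common. Whether the sequence before their outermost starts shares a motif cannot be read from this search.

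The 150 bases before the start are shown for DUSP1 and SPRY2, the genes with a match whose stretch crosses no annotated exon. The motif is in capitals, and both are read on the minus strand, 5′ to 3′. In DUSP1 (chr5:172771196-172771345) it lies 125 to 118 bases before the start, and in SPRY2 (chr13:80341127-80341276) 142 to 137 bases before it.
DUSP1: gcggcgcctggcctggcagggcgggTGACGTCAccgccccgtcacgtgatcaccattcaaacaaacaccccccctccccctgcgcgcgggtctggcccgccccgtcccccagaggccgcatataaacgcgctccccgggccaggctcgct
SPRY2: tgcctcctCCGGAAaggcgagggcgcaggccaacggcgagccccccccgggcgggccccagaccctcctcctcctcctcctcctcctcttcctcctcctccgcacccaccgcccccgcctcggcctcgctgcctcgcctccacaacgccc

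DUSP1 (ENSG00000120129.5, GRCh38 chromosome 5, 172768090 to 172771195, minus strand) encodes a nuclear phosphatase that acts on p38 and JNK as well as ERK and is a classical immediate-early gene. It stood at 16.9, 17.1 and 14.7 CPM in shNT and at 21.4, 19.6 and 19.5 CPM in shYES1. The lowest shYES1 library lay above the highest shNT library. The mean went from 16.2 ± 1.33 to 20.1 ± 1.06 CPM (SD, n = 3), a log2 fold change of 0.32 ± 0.0758 (SE; adjusted p = 0.000256 in edgeR). Because RNA was taken from whole cultures, more cells with the transcript and more transcript per cell cannot be told apart, here and for every gene that follows.

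DUSP4 (ENSG00000120875.8, chromosome 8, 29333064 to 29350668, minus strand), a nuclear relative of DUSP1, moved the other way. Its level was 135, 129 and 133 CPM in shNT and 87.7, 91.4 and 91.6 CPM in shYES1, so a wide gap separated the groups. It fell from 132.5 ± 2.79 to 90.2 ± 2.17 CPM (log2 fold change -0.56 ± 0.0343 as SE, adjusted p = 3.25e-19 in edgeR). Of all genes tested, 25.7% changed by more.

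DUSP5 (ENSG00000138166.5, chromosome 10, 110497838 to 110511544, plus strand) encodes a nuclear phosphatase selective for ERK. It was at 15.4, 16.4 and 16.1 CPM in shNT and at 21.0, 24.04 and 19.9 CPM in shYES1, where the libraries differed more among themselves than in shNT. Its log2 fold change came to 0.42 ± 0.076 (SE), with an adjusted p of 4.73e-06 in edgeR. DUSP5 had the lowest read count of the 10 genes, 190 reads in shNT sample 1, and with DUSP1 it has the widest SE.

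DUSP6 (ENSG00000139318.7, chromosome 12, 89347232 to 89353271, minus strand) encodes the cytoplasmic phosphatase selective for ERK, and its RNA is among those most often used to read ERK activity. It was at 60.4, 64.7 and 65.6 CPM in shNT and at 72.9, 73.1 and 69.7 CPM in shYES1. The groups were separate but close, and the rise was small, 1.13-fold (log2 fold change 0.17 ± 0.0419 as SE, adjusted p = 0.000408 in edgeR). With the scaling on CCTTTC-free genes the call was lost (0.08, edgeR adjusted p = 0.0932), and by library size the value was 0.27. An antisense gene, AC024909.2, overlaps DUSP6 exons, so counting without regard to strand loses 23.8% of its reads. Only 1.30% of the reads at DUSP6 lay on the opposite strand, and the strand-specific counts used here keep the 2 genes apart.

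Added together, the 4 phosphatase transcripts came to 227 to 229.8 CPM in shNT and 201 to 208 CPM in shYES1. The sum is lower in shYES1 although 3 of its 4 genes rose, since DUSP4 lost more counts than the other 3 gained.

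The Sprouty and SPRED genes are the group in which every gene rose, 4 of 4, with a call that SPRED2 lost under 4 alternatives, beside 32.5% of all genes called higher. The summed level of these 4 genes was 272 to 283 CPM in shNT and 385 to 391 CPM in shYES1. SPRY2 (ENSG00000136158.11, chromosome 13, 80335976 to 80340951, minus strand) encodes a Sprouty protein that is brought to the membrane on growth factor stimulation and restrains signalling from several receptor kinases. It stood at 69.2, 72.7 and 68.1 CPM in shNT and at 98.8, 100.1 and 101.8 CPM in shYES1. Every shYES1 library thus lay far above every shNT library, beside a small spread within each group. The mean rose from 70.03 ± 2.4 to 100.2 ± 1.51 CPM (log2 fold change 0.52 ± 0.0379 as SE, adjusted p = 1.15e-16 in edgeR).

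SPRY4 (ENSG00000187678.8, chromosome 5, 142310427 to 142326455, minus strand), a second Sprouty inhibitor, was at 26.3, 28.1 and 26.7 CPM in shNT and at 38.5, 33.4 and 34.4 CPM in shYES1. The shYES1 libraries spread more widely than the controls, yet all lay above them. Its log2 fold change came to 0.40 ± 0.06 (SE), with an adjusted p of 1.37e-07 in edgeR. The antisense gene SPRY4-AS1 was barely detected, at 0.711 ± 0.249 CPM in shNT and 0.618 ± 0.0618 CPM in shYES1, and was not called (edgeR adjusted p = 0.569).

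SPRED1 (ENSG00000166068.12, chromosome 15, 38252326 to 38357249, plus strand) encodes an adaptor that carries neurofibromin, which switches RAS off, to the membrane. It was at 107, 112 and 109 CPM in shNT and at 171, 180.1 and 178 CPM in shYES1, the widest separation among the 10 genes. The mean rose from 109.5 ± 2.56 to 176 ± 4.91 CPM (log2 fold change 0.68 ± 0.0327 as SE, adjusted p = 2.31e-23 in edgeR). Against a minimum of 1.5-fold its adjusted p was 0.00378. Even so, 18.5% of all genes tested changed by more.

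SPRED2 (ENSG00000198369.9, chromosome 2, 65310851 to 65432637, minus strand), its close relative, barely differed. It was at 69.1, 69.8 and 74.4 CPM in shNT and at 77.1, 76.2 and 76.7 CPM in shYES1. The highest control library came close to the lowest shYES1 library. The log2 fold change came to 0.11 ± 0.0398 (SE), with an adjusted p of 0.0177 in edgeR, and this is the least stable call of the 10. It was lost with DESeq2 (adjusted p = 0.0754), without shNT sample 1 (edgeR adjusted p = 0.0803), without shNT sample 2 (0.08) and with scaling on genes that lack CCTTTC (0.77, log2 fold change 0.01), whereas by library size the value was 0.20.

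ETV4 (ENSG00000175832.12, chromosome 17, 43527844 to 43579620, minus strand) was at 28.04, 32.5 and 28.8 CPM in shNT and at 33.7, 36.6 and 34.9 CPM in shYES1. The groups did not overlap, but shNT sample 2 came close to the lowest shYES1 library. Its log2 fold change came to 0.23 ± 0.0589 (SE), with an adjusted p of 0.000584 in edgeR, and was 0.14 (adjusted p = 0.0335) with scaling on CCTTTC-free genes. The gene DHX8 on the opposite strand shares exon sequence with ETV4 and was itself slightly higher, from 54.9 ± 1.4 to 60.1 ± 3 CPM (log2 fold change 0.14, edgeR adjusted p = 0.00721). Of the reads at ETV4, 1.66% lay on the opposite strand.

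ETV5 (ENSG00000244405.7, chromosome 3, 186046308 to 186110318, minus strand) was the second of the 10 genes to fall. It was at 68.3, 70.4 and 68.8 CPM in shNT and at 61.3, 58.5 and 61.3 CPM in shYES1, tight within each group. The log2 fold change came to -0.19 ± 0.0413 (SE), with an adjusted p of 7.57e-05 in edgeR. By library-size scaling the fall was smaller (-0.09, adjusted p = 0.0411). Exons of DGKG, a neighbouring gene, are annotated over ETV5 on the same strand, and reads that fall in both go to neither gene, so its level is uncertain. ETV1, the remaining factor of the PEA3 subfamily, was at 152.8 ± 1.47 CPM in shNT and at 148.5 ± 1.42 CPM in shYES1 and was not called (log2 fold change -0.04, edgeR adjusted p = 0.217). The sign of that value changed with library-size scaling (0.05), and with scaling on genes without CCTTTC it was called lower (-0.14, edgeR adjusted p = 0.000145).

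**Figure D2:**
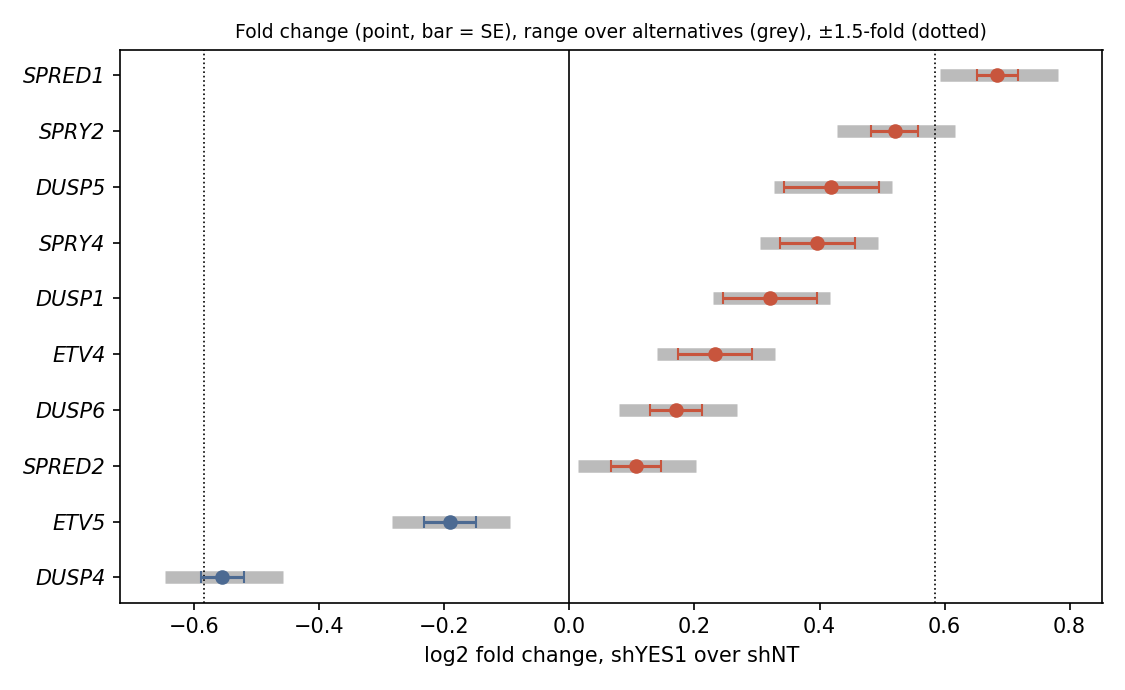
The log2 fold change of each gene in shYES1 over shNT (points, bars are SE, n = 3 per group), the range over the 15 alternatives (grey bands) and the 1.5-fold lines (dotted). SPRED1 at 0.68 lies past the line, DUSP4 at -0.56 is the largest fall, and SPRED2 at 0.11 lies nearest 0.

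Levels were set against each other per kilobase of exon, with all annotated exons of a gene counted. This can understate genes with many annotated transcripts (14 for ETV5, 1 for DUSP1), so the order is approximate. By this measure SPRY2 was highest in shNT at 23.1 ± 0.791 CPM per kilobase, followed by DUSP4 at 18.3 ± 0.385. SPRED2 (13.8), DUSP6 (13.7) and SPRED1 (13.3) came next, and neighbours in that run overlapped between libraries. ETV5 followed at 11.9, then ETV4 (8.25) and DUSP1 (8.04), which overlapped, then DUSP5 (6.09) and SPRY4 (4.12 ± 0.143). The 10 genes thus spread from near the middle of all tested genes, where SPRY4 exceeded 47.4% of them, to the upper part, where SPRY2 exceeded 87.1%.

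The order in shYES1 differed at ranks 2 to 5, and the overlapping DUSP1 and ETV4 exchanged ranks 7 and 8. SPRY2 stayed first at 33.0 ± 0.497 CPM per kilobase, SPRED1 moved from rank 5 to rank 2 (21.3 ± 0.594) and DUSP4 from rank 2 to rank 5 (12.4 ± 0.299). DUSP6 (15.5) and SPRED2 (14.9) lay between them. ETV5 (10.4), DUSP1 (9.97) and ETV4 (9.72) formed a run whose neighbours overlapped, with DUSP5 (8.27) and SPRY4 (5.4) again last.

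**Figure D3:**
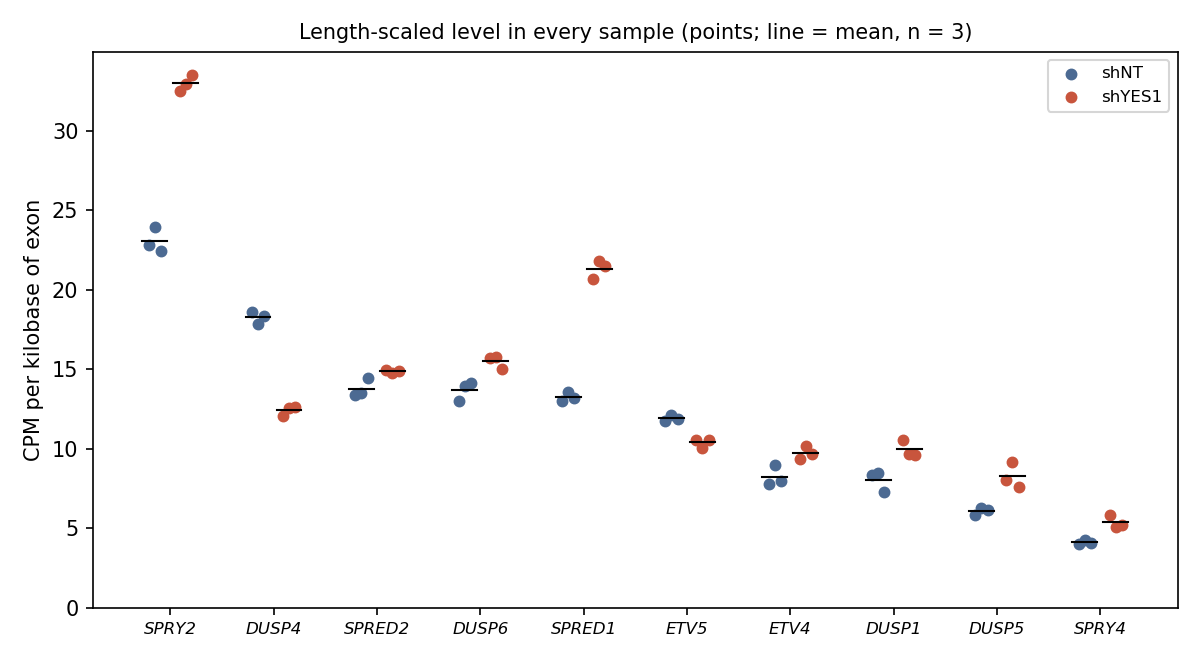
CPM per kilobase of exon of the 10 genes in each library (points, lines are means of 3), ordered by their level in shNT. SPRY2 is highest in both groups, and SPRED1 and DUSP4 exchange ranks 2 and 5.

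Ratios taken within each library show how far related genes moved apart, free of the scaling between libraries apart from the 1 CPM added before the logarithm. DUSP4 over DUSP1 stood at 2.92, 2.85 and 3.10 (log2 ratio) in shNT and at 1.99, 2.17 and 2.18 in shYES1. The ratio of this pair was therefore 1.8-fold lower, a larger shift than that of either gene. SPRED1 over SPRED2 was at 0.63, 0.68 and 0.54 in shNT and at 1.136, 1.23 and 1.202 in shYES1, a 1.49-fold shift towards SPRED1. ETV4 over ETV5 went from -1.19 ± 0.0868 to -0.77 ± 0.0946 (log2 ratio, mean ± SD, n = 3), 1.34-fold towards ETV4.

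DUSP5 over DUSP6 moved less, from -1.93 ± 0.028 to -1.69 ± 0.108 (1.18-fold). In these 4 pairs the groups did not overlap. SPRY2 over SPRY4 was the pair whose groups overlapped, at 1.34 ± 0.0243 in shNT and 1.48 ± 0.122 in shYES1, a difference of 0.13. That overlap rests on shYES1 sample 1, at 1.336 beside 1.557 and 1.537 in the other shYES1 libraries: without it the groups are separate and the difference is 0.21 (exact permutation p = 0.1). With 3 libraries against 3, an exact 2-sided permutation test cannot go below p = 0.1. This exact test gave p = 0.1 for the 4 separate pairs and 0.3 for SPRY2 over SPRY4 (0.125 and 0.3 after Benjamini-Hochberg adjustment over the 5 pairs), so no pair passed 0.05 in this design.

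**Figure D4:**
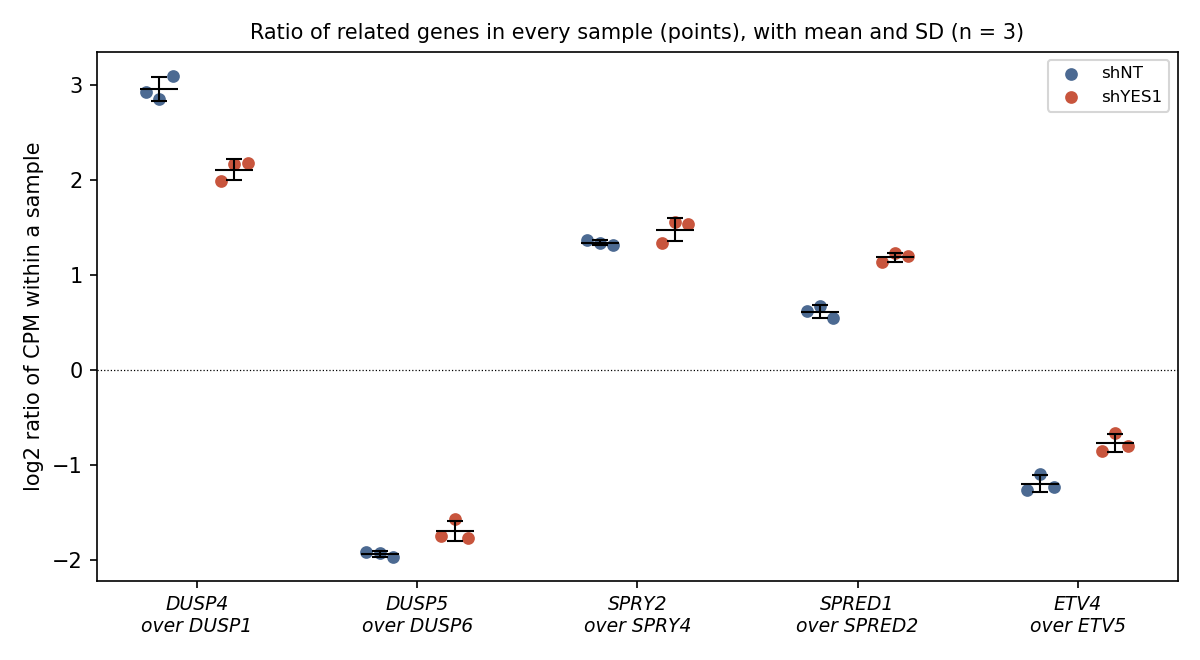
Log2 ratio of the CPM of 2 related genes within each library (points; bars are mean and SD of 3 libraries). DUSP4 over DUSP1 drops from 2.96 to 2.11 and SPRED1 over SPRED2 climbs from 0.62 to 1.19, while the 2 groups of SPRY2 over SPRY4 overlap.

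The 3' UTRs of the 10 genes, taken from GENCODE 29, differed in length from 672 bases (DUSP1) to 5585 bases (SPRED1), counting the longest of each gene. They were searched for CCTTTC, a sequence that was itself picked on these libraries, as one found more often in genes lower in shYES1. The 10 genes were among those it was picked on, so what follows is a description and no independent evidence. Of 11999 tested genes with an annotated 3' UTR, 48.0% hold CCTTTC in at least 1 transcript. Those with it had a median log2 fold change of -0.08 and those without it 0.09.

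Of the 10 feedback genes, 4 hold it: DUSP4 with 2 copies, ETV5 with 2, ETV4 with 2 and SPRED2 with 1. Both genes that fell are among these 4, and the 2 that rose, ETV4 and SPRED2, did so by 0.23 and 0.11. The 6 genes without it, DUSP1, DUSP5, DUSP6, SPRY2, SPRY4 and SPRED1, all rose, by 0.17 to 0.68 (median 0.41, against -0.04 for the 4 with it). Of all tested genes whose 3' UTRs lack it, 41.9% were called higher and 25.9% lower. Of those that hold it, 30.9% were called higher and 43.6% lower. In DUSP4, ETV5 and SPRED2 only 1 annotated 3' UTR holds the sequence, of 2, 2 and 3, and in ETV4 it is in 3 of 7. Its part in the changes was not tested.

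The sites of 3 of these 4 genes, ETV5, ETV4 and SPRED2, are shown so that the bases around the sequence can be read. Those of DUSP4, the gene with the largest fall, are not printed here. Each line gives 30 bases of the transcript, 5′ to 3′, with CCTTTC in capitals, from GENCODE 29 transcripts on GRCh38, all on the minus strand. In ETV5 they lie at chr3:186047969-186047998 and chr3:186046697-186046726, in ETV4 at chr17:43527922-43527951 and chr17:43527910-43527939, and in SPRED2 at chr2:65311919-65311948. The ETV4 sites lie 12 bases apart, so their lines share sequence, and each of the pair is in capitals in its own line.
ETV5 site 1: tagagcaagcccCCTTTCtcttcccaatca
ETV5 site 2: agatttggttttCCTTTCtttacttaccct
ETV4 site 1: agggaccctttgCCTTTCttctgccctttc
ETV4 site 2: cctttcttctgcCCTTTCctaggcccaggc
SPRED2 site: tgctccccactcCCTTTCcccactccttct

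A second sequence, TATTTAT, the core of AU-rich elements that shorten the life of many immediate-early transcripts, was in the longest 3' UTR of 7 of the 10 genes and of 36.0% of tested genes with a 3' UTR. SPRED1 had 5 copies, DUSP4 and SPRY4 had 4 each, DUSP1 had 3 within its 672 bases, SPRY2 had 2, and SPRED2 and ETV5 had 1 each. DUSP5, DUSP6 and ETV4 had none. Genes that rose and genes that fell are thus found both with it and, for rises, without it.

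Other genes of the pathway were read from lists ordered by role. Among the 6 other MAP kinase phosphatases listed, 4 were expressed enough to test. DUSP8 (log2 fold change 0.46) and DUSP16 (0.28), which act mainly on JNK and p38, rose, DUSP10, of the same preference, fell from 51.7 ± 0.772 to 45.7 ± 1.04 CPM (-0.18), and DUSP7, the ERK-selective relative of DUSP6, was not called (-0.14, edgeR adjusted p = 0.069). DUSP7 was called lower with scaling on CCTTTC-free genes (-0.23, edgeR adjusted p = 0.00249) and without shYES1 sample 2 (-0.19, edgeR adjusted p = 0.0203), while without shYES1 sample 3 its value shrank to -0.08 and with library-size scaling to -0.04. The call of DUSP10 was lost with library-size scaling (edgeR adjusted p = 0.122).

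Of 11 other inhibitors of RAS and ERK, 9 were tested, 5 rose and 3 fell (median 0.08). Of all genes 32.5% were called higher and 32.8% lower. With scaling on genes without CCTTTC, 3 rose and 3 fell (median -0.01). SPRY1 parted from SPRY2 and SPRY4: it was at 14.1, 15.1 and 16.2 CPM in shNT and at 7.18, 8.04 and 7.51 CPM in shYES1, below every control. Its log2 fold change was -1.01 (edgeR adjusted p = 3.52e-13), the largest fall in that list. NF1, which encodes the neurofibromin that SPRED1 carries to RAS, rose from 104 ± 1.73 to 142 ± 4.83 CPM (0.46). RASAL2 (0.31) and PEBP1 (0.11) also rose, whereas RASA1 (-0.44), a GTPase-activating protein for RAS, and the ubiquitin ligase gene CBL (-0.60) fell. PEBP1 lost its call with scaling on genes without CCTTTC (edgeR adjusted p = 0.561).

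Among 12 further ETS factors and regulators of ETV genes, 5 rose and 3 fell (median 0.0031), beside 32.5% of all genes called higher and 32.8% lower. With scaling on genes without CCTTTC 3 rose and 6 fell. ELK1, a factor that ERK phosphorylates at serum response elements, fell from 62.8 ± 0.563 to 15.6 ± 0.612 CPM (log2 fold change -2.02, edgeR adjusted p = 1.69e-32), more than any of the 10 feedback genes. Its relatives ELK3 (0.38) and ELK4 (0.30) rose. COP1, which marks ETV proteins for destruction, rose (0.29), ATXN1, a partner of CIC, fell (-0.61), and ETV3 fell slightly (-0.13). The ETV3 call was lost under 6 of the 15 alternatives, with adjusted p up to 0.547.

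The list of 15 other genes that ERK induces gave 3 higher and 6 lower, where 32.5% of all genes were called higher and 32.8% lower. Its median was -0.15, on the other side of 0 from the median of the 10 feedback genes. The counts of this list moved with the scaling, to 2 higher and 9 lower (median -0.25) on CCTTTC-free genes and to 5 higher and 6 lower (median -0.06) by library size. EGR1, an immediate-early transcription factor, was at 9.70, 8.02 and 9.38 CPM in shNT and at 2.62, 3.17 and 3.01 CPM in shYES1 (log2 fold change -1.63, edgeR adjusted p = 9.68e-15). LIF, a cytokine gene (-1.46), and HMGA2, which encodes a chromatin protein (-1.07), fell as well. EPHA2, a receptor tyrosine kinase gene, rose from 85.0 ± 2.86 to 173 ± 9.59 CPM (1.02), and HBEGF, an EGF receptor ligand (0.68), and PHLDA1 (0.14) rose. PHLDA1 lost its call with scaling on genes without CCTTTC (edgeR adjusted p = 0.22). Against the 1.5-fold minimum 5 of these 15 genes passed, 4 of them lower, and 1 of the 10 feedback genes did, higher. Of all genes 13.8% did, 4.33% upwards and 9.47% downwards. Whether the 2 sets differ was not tested, and both were chosen with earlier results of these data known.

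The 19 genes of the relay itself gave 13 higher and 5 lower (median 0.24), where 32.5% of all genes were called higher and 32.8% lower. With scaling on CCTTTC-free genes 11 were higher and 6 lower (median 0.15). In edgeR 0 of the 19 passed the 1.5-fold minimum (1 at an unadjusted p under 0.05), against 13.8% of all genes. KSR1, a scaffold of the relay (0.76), MAP2K2, which encodes MEK2 (0.55), and SOS1, an exchange factor for RAS (0.52), rose. RPS6KA1, which encodes a kinase that ERK activates (-0.46), and PTPN11, which encodes the phosphatase SHP2 (-0.30), fell. These are RNA levels, and the activity of ERK was not measured in these files.

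**Figure D5:**
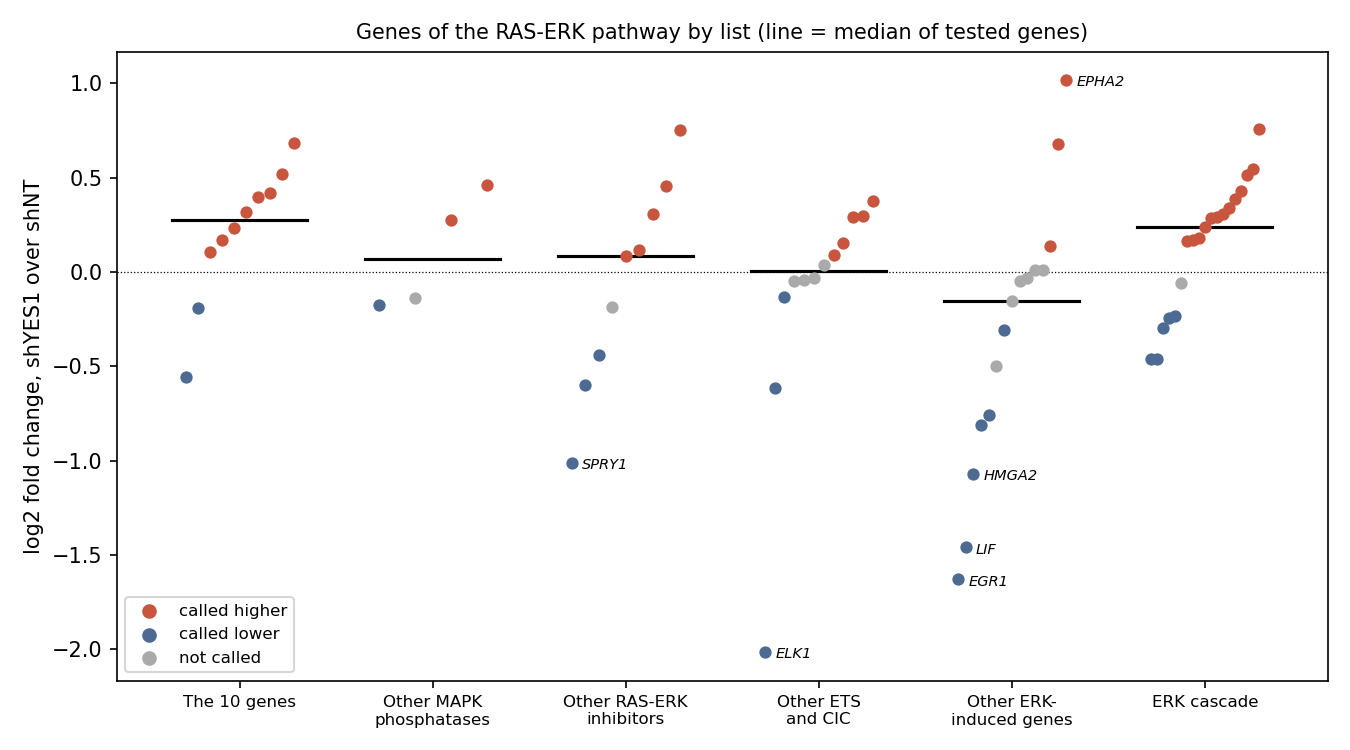
Log2 fold change (shYES1 over shNT) of each tested gene of the 10 feedback genes and 5 lists of the pathway, coloured by call, with the median of each list (lines). The 10 feedback genes lie between -0.56 and 0.68 with a median of 0.28, while ELK1 at -2.02, EGR1 at -1.63 and LIF at -1.46 lie far below.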

How the data were processed

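RNA of 6 SNU-387 samples, 3 shNT and 3 shYES1 by their labels, was sequenced from stranded poly(A) libraries. The deposited values are whole-number read counts per gene, not normalized, 1 file per sample. Per the submitters' processing notes, CASAVA 1.8.2, Trimmomatic 0.35, STAR 2.5.1b and build GRCh38 were used, and the annotation release is not stated there. The reverse-strand column was analysed, since 93.5% to 94.0% of stranded gene reads fell there. Entries that name no gene held 19.8% to 20.3% of reads and were left out. Of 58219 identifiers, 57437 matched a symbol and 57881 are in GENCODE 29. Reads that map to several places or to overlapping genes are set apart in the summary rows, per the file headers. In R 4.3.3, edgeR 4.0.16 (filterByExpr with minimum count 10 and total 15, TMM, robust quasi-likelihood test) compared the groups across all genes, with Benjamini-Hochberg adjusted p under 0.05 as the call. Standard errors are the log2 fold change over the root of F, which is approximate. The fit was tested on simulated data in which few genes changed, in both directions, so that test does not bear on the choice of scaling here. Replicates differed by more than sampling noise (chi-square per degree of freedom 1.14 to 2.07), so none was merged.

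Alternatives were RLE or library-size scaling, TMM on the 6241 tested genes whose 3' UTRs lack CCTTTC, DESeq2 1.42.0, limma-voom (limma 3.58.1), no filter, a floor of 1 CPM in 3 libraries, a block for sample number, unstranded counts and leaving out each library. The test against 1.5-fold (edgeR glmTreat) was added after seeing the data. Genes were named by rule: the 10 genes, YES1, up to 3 rises and 3 falls per list among called genes of at least 5 CPM without overlap between groups, and opposite-strand partners of at least 1 CPM. SPRY4-AS1, ETV1, DUSP7 and the marker genes given with values fall outside that rule, and 1 gene that it names is not reported here. The members and lists were chosen with earlier results of these data known.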

Additional observations from a re-analysis of the deposited data

How the results depend on the processing

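All 10 genes kept their direction under the 15 alternatives of scaling, tool, filter, block, strand and library, and 8 kept their call in each. The exceptions are DUSP6, not called with scaling on genes without CCTTTC, and SPRED2, not called under 4 alternatives, with the values given above. The number of the 10 genes called higher was 6 with scaling on genes without CCTTTC, 7 with DESeq2, and 7 to 8 with a library left out, and 2 were called lower under each. Against a minimum of 1.5-fold, 1965 genes were called, 617 higher and 1348 lower, and of the 10 genes 1 was higher and 0 lower (edgeR; at an unadjusted p under 0.05, also 1 higher and 0 lower). Over all genes, 9299 calls became 7953 with DESeq2 and 8751 to 9078 with a library left out. ETV1 changed sign with library-size scaling (0.0537). Samples of equal number showed no shared shift: their deviations from the group means correlated at 0.014, 0.028 and 0.005 across genes. Whether they were handled in pairs is not in the labels, and these correlations cannot decide it. With the sample number as a block, 9297 genes, and 8 higher and 2 lower of the 10, were called. The ratios of related genes moved by less than the spread between libraries under each alternative, SPRY2 over SPRY4 becoming separate without shYES1 sample 1. With 190 to 3478 reads per gene and library, counting error is largest for DUSP5 and DUSP1.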
